A study of Mus musculus with 6 samples.

Results

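General stromal identity genes are the genes that fibroblast-like cells of many tissues share, whether or not those cells go on to make bone. The members here were 40 such genes of 54532 in the count table, fixed by name as transcription factors, surface proteins, caveolar and actin-binding proteins and cytosolic enzymes that are neither bone-specific nor matrix proteins. All 40 were found by gene name in the annotation deposited with the counts. Their expression was measured by RNA-seq in primary bone marrow mesenchymal stromal cells (BMSCs) of wild type mice. Both groups spent 7 days in osteogenic induction medium with dexamethasone, ascorbic acid and β-glycerophosphate. The Ni group also received 0.1 μM NiCl2, a low dose of nickel ions, and the control group received vehicle. Each group held 3 libraries, which the series describes as independent biological replicates. The age and sex of the mice, the number of mice pooled in a culture, the passage and any sorting of the cells are not given in the sources used here. Dexamethasone is given as 100 nM in the sample labels and as 1 nM in the study's methods, and it was the same for both groups in either source.

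Stromal cells are recognised by a set of genes rather than by any single marker. Transcription factors such as PRRX1 and TWIST2 specify mesenchyme in the embryo, the SNAIL and ZEB repressors hold epithelial genes off, and the TEAD factors with their coactivators YAP and TAZ read out stretch and attachment. At the surface such cells carry PDGFRα and the proteins used to define mesenchymal stromal cells in culture, THY1 (CD90) and NT5E (CD73), while caveolae and tropomyosin-bearing stress fibres equip them to bear load. In bone marrow the same cells can become osteoblasts or adipocytes and they share the dish with adherent macrophages.

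The libraries held 16101033 to 18642504 counts. Levels of single genes are given as CPM, counts scaled to a common library size by edgeR's TMM method, and levels of different genes are set side by side only as the deposited FPKM values, which are divided by gene length. Of all genes, 14624 passed edgeR's filter on low counts and were tested with its quasi-likelihood test. Control replicate 3 stood apart from the other controls across all genes, with a chi-square per degree of freedom of 40.5 and 43.6 against control replicates 1 and 2, where the latter 2 differed by 8.07 from each other. Ni replicate 2 differed from the other Ni libraries by 18.6 and 21.7 on this measure, and those by 4.37 from each other. Results are given with all libraries and, for the members and lists that control replicate 3 moved, also without it. With 3 libraries against 3 an exact two-sided permutation test of a single gene cannot give a p below 0.1.

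Most stromal genes were present and were spread over a wide range of levels. Of the 40, 2 had a control mean of at least 100 FPKM, 17 lay between 10 and 100 FPKM, 15 between 1 and 10 FPKM and 6 below 1 FPKM. Gas6, which encodes the ligand of the receptor AXL, was the most abundant with 523 ± 39.2 FPKM (SD, n = 3) in controls. It was followed by Cnn2, encoding calponin, with 119.6 ± 20.1 FPKM (SD, n = 3), Cavin1, a coat protein of caveolae, with 56.0 ± 15.9 FPKM (SD, n = 3), and Tpm2, a tropomyosin, with 48.5 ± 18.5 FPKM (SD, n = 3). The levels of Gas6 and Cnn2 did not overlap in any library. The control levels of Cavin1 and Tpm2 overlapped between libraries, but Cavin1 exceeded Tpm2 within every library. Pdgfra, the receptor most often used to mark stromal cells, had 6.55 ± 0.470 FPKM (SD, n = 3) in controls and Prrx1 12.97 ± 2.84 FPKM (SD, n = 3). At the low end Ebf2, Thy1 and Bnc2 had control means of 0.773 ± 0.171, 0.402 ± 0.0984 and 0.202 ± 0.0229 FPKM (SD, n = 3 each), and Meox1, Twist2 and Meox2 were close to 0.

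**Figure D1:**
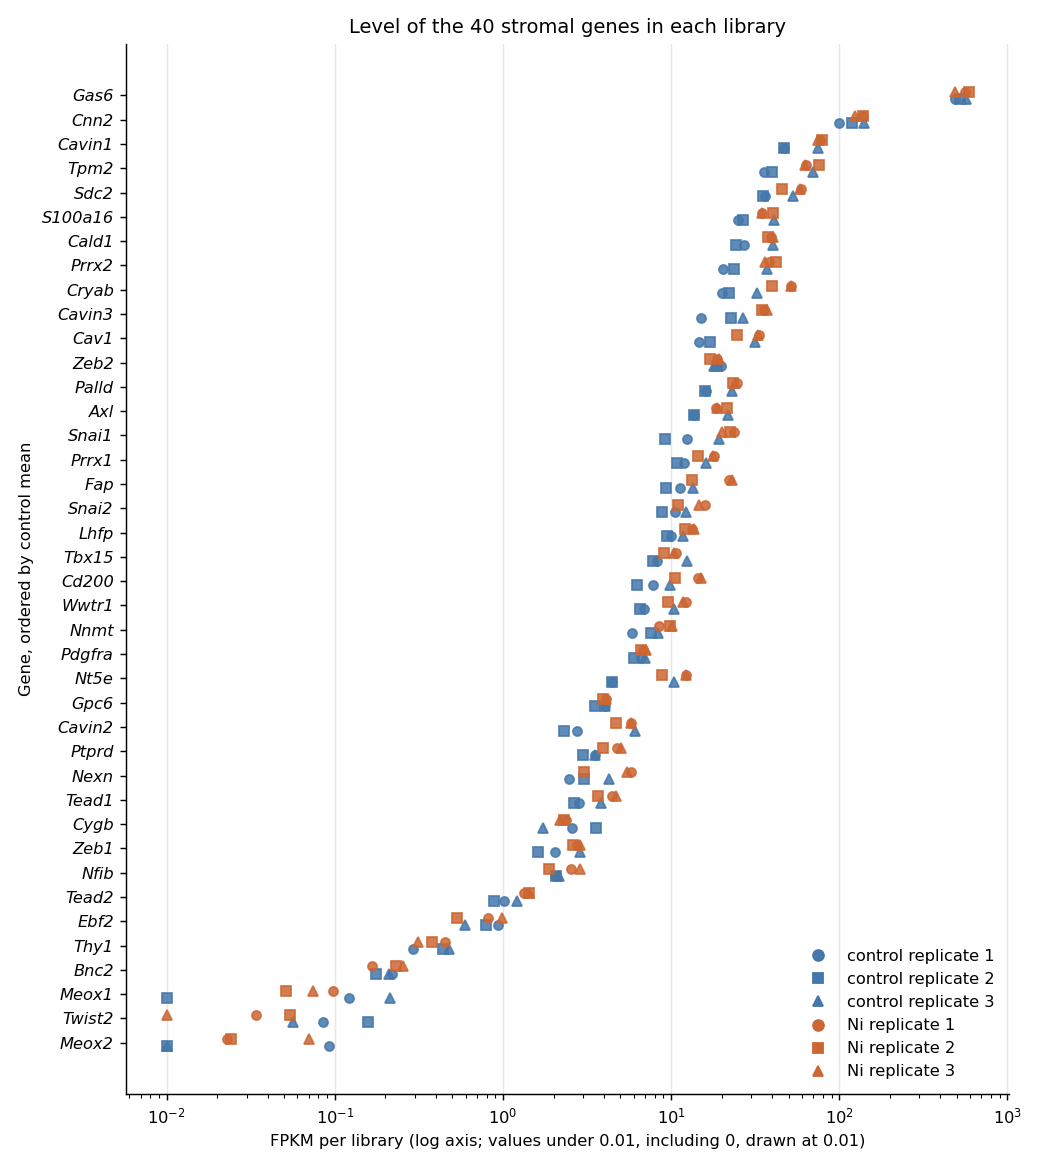
FPKM (log axis) of the 40 stromal genes in each library, ordered by control mean; each point is a library, blue for control and orange for Ni, with values under 0.01 drawn at 0.01. Gas6 stands alone at the top, Thy1 lies under 1 FPKM in every library, and Meox1, Twist2 and Meox2 hold the lowest places.

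Across the list, stromal genes were higher in Ni than in control libraries by a modest margin, and no member passed the adjusted test. The median log2 fold change of the 37 members tested was 0.38, where the median of all genes tested was -0.01. It was positive for 34 of the 37 (91.9%), against 48.1% of all genes tested. At an unadjusted p under 0.05 in edgeR, 16 members were higher in Ni and 0 lower, where 7.59% and 5.83% of all genes tested passed in these directions. At an adjusted p under 0.05 there were 0 members in edgeR's test, where 0% of all genes tested were called, and limma on log2(FPKM + 1) or log2(FPKM + 0.1) also gave 0. DESeq2 called 4 members, Cryab, Cd200, Cavin3 and Fap, all higher in Ni, where it called 1.49% of all genes in that direction. Without the filter on low counts edgeR called 14 members, where 3.97% of all genes were called, and with the replicate number as a block it called 6, where 2.15% were. The 3 Ni libraries lay above all 3 controls for 9 members and below them for 0, where 7.97% and 6.71% of all genes tested had these patterns. In a bulk sample fewer cells of a type and less RNA per cell cannot be told apart, so these values describe RNA in the whole culture.

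Control replicate 3 resembled the Ni libraries in its stromal genes. With the control mean set to 0 on the log2 scale, the median member stood at -0.14, -0.18 and 0.35 in control replicates 1 to 3 and at 0.44, 0.27 and 0.45 in Ni replicates 1 to 3. The median of control replicate 3 thus lay above that of Ni replicate 2. It was the highest control for 33 of the 37 members, where this held for 39.4% of all genes tested. For 20 members (54.1%, against 14.2% of all genes tested) control replicates 1 and 2 both lay below every Ni library while control replicate 3 lay within or above the Ni range. The members varied more among controls, with a median coefficient of variation of 24.5%, than among Ni libraries, with 10.4%; over all genes tested these medians were 12.97% and 10.9%. Without control replicate 3 the median log2 fold change was 0.56, again with 34 of 37 positive, and 22 members were called higher at an adjusted p under 0.05, where 8.69% of all genes tested then were. Because it was the highest control for most members, leaving it out raises their fold changes and lowers the spread among controls. Calls made without it, here and below, are therefore a description and not separate support for a difference. Leaving out control replicate 1 or 2, or Ni replicate 1 or 3, gave fewer members at an unadjusted p under 0.05 than all libraries. Shares of all genes are not given for those fits, so these counts are not read as a result about the members. Ni replicate 2 was the lowest Ni library for 24 of the 37 members, where this held for 39.4% of all genes.

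**Figure D2:**
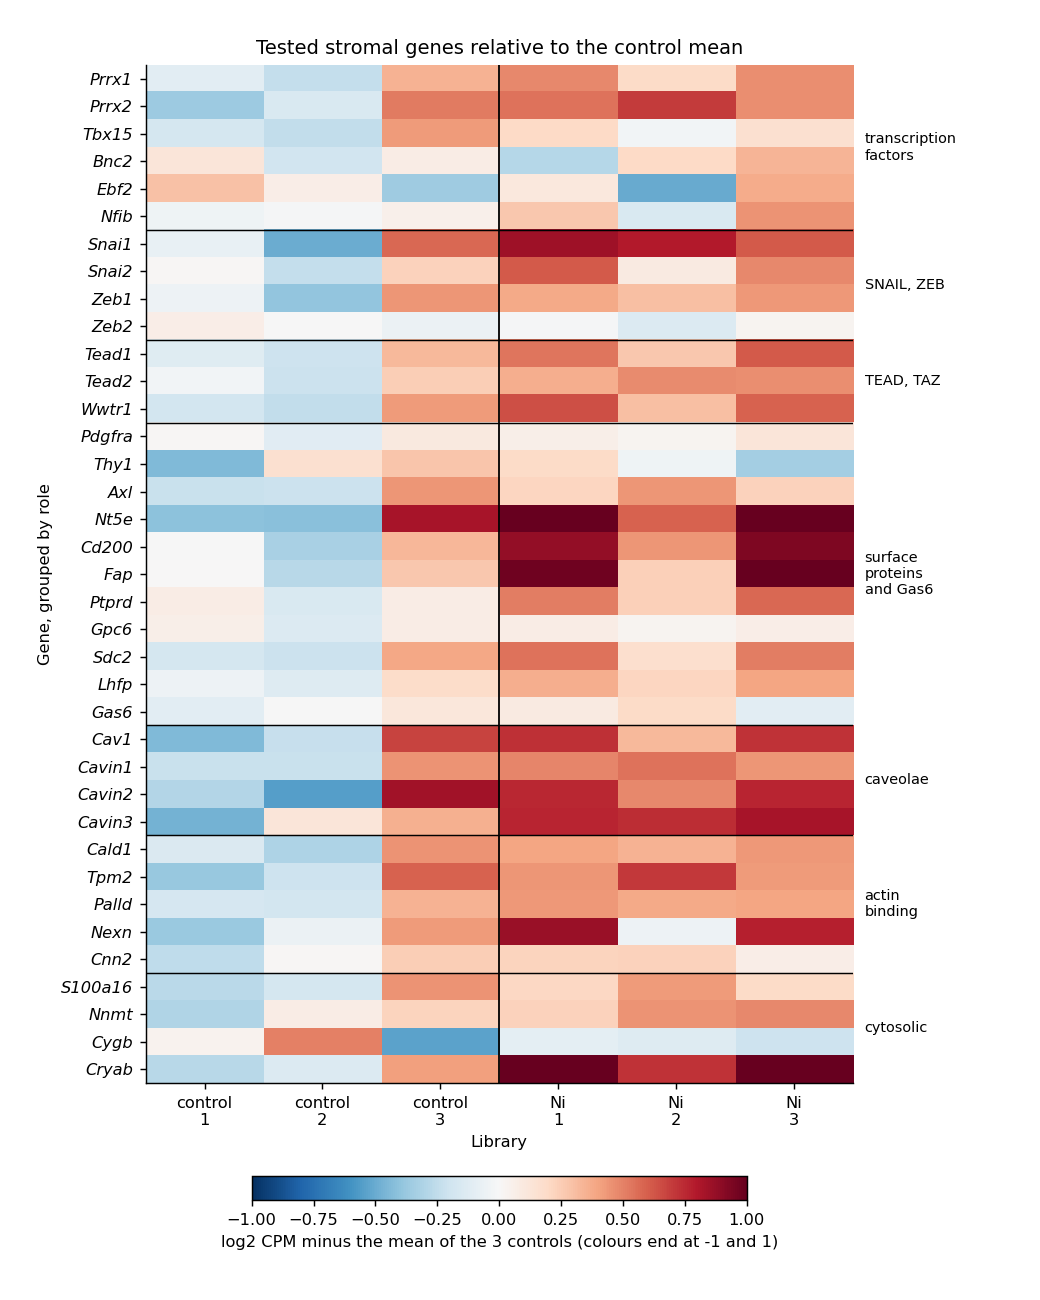
Log2 CPM of the 37 tested stromal genes in each library minus the mean of the 3 controls, grouped by role; red is above and blue below the control mean, and colours end at -1 and 1. Control replicate 3 is red for most genes, as the Ni libraries are, while control replicates 1 and 2 are mostly blue.

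Among the mesenchymal transcription factors, 6 of the 9 were expressed well enough to test, with a median log2 fold change of 0.15, and the PRRX genes had the largest fold changes. Prrx1 (ENSMUSG00000026586, chromosome 1 from 163245119 to 163313710, minus strand) encodes a homeodomain factor of limb and skull mesenchyme. It was measured at 132, 121 and 181 CPM in control replicates 1 to 3 and at 199, 162 and 197 CPM in Ni replicates 1 to 3, with a log2 fold change of 0.36 (standard error 0.16, edgeR adjusted p = 0.364). Control replicates 1 and 2 lay below every Ni library and control replicate 3 within the Ni range. Its paralog Prrx2 (ENSMUSG00000039476, chromosome 2 from 30834972 to 30881251, plus strand) showed the same placing of libraries, with 40.2, 46.5 and 74.2 CPM in controls and 75.5, 83.9 and 71.5 CPM in Ni libraries. For Prrx2 the log2 fold change was 0.52 (standard error 0.21, edgeR adjusted p = 0.351), and Ni replicate 2 was here the highest library, not the lowest Ni library as for Prrx1. Without control replicate 3 the log2 fold change was 0.56 (edgeR adjusted p = 0.00374) for Prrx1 and 0.83 (edgeR adjusted p = 0.000457) for Prrx2.

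The other transcription factors tested had fold changes within 1.5 standard errors of 0 with all libraries. Nfib, a nuclear factor I protein, ranged from 30.7 to 32.6 CPM in controls and from 28.3 to 43.0 CPM in Ni libraries, with a log2 fold change of 0.21 (standard error 0.15). Tbx15, a T-box factor of skeletal and fibroblast development, had 0.08 (standard error 0.17), and control replicate 3, at 47.2 CPM, was above every Ni library. The log2 fold change of Tbx15 was 0.33 (edgeR adjusted p = 0.0780) without that library. Bnc2, a zinc finger protein of fibroblasts, and Ebf2, a factor of stromal and preadipocyte cells, had log2 fold changes of 0.10 (standard error 0.32) and 0.01 (standard error 0.27) at no more than 6.85 CPM. The sign of Ebf2 turned without control replicate 3, to -0.14 (edgeR adjusted p = 0.786). The basic helix-loop-helix gene Twist2 was counted 5, 8 and 3 times in controls and 2, 3 and 0 times in Ni libraries. The homeobox gene Meox1, active in somites, was counted 5, 0 and 8 times in controls and 4, 2 and 3 times in Ni libraries, and its paralog Meox2 4, 0 and 0 and 1, 1 and 3 times. All 3 were below the filter and were not tested. For Twist2, 46.5% of its exon bases lie under an exon of Gm29100 on the opposite strand.

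The SNAIL and ZEB genes split by family member. Snai1 (ENSMUSG00000042821, chromosome 2 from 167538195 to 167542814, plus strand), the zinc finger repressor of E-cadherin, had 20.2, 15.1 and 31.6 CPM in controls and 38.3, 36.8 and 32.6 CPM in Ni libraries. Every Ni library lay above every control, with a log2 fold change of 0.69 (standard error 0.24, edgeR adjusted p = 0.323). Snai2 (ENSMUSG00000022676, chromosome 16 from 14705852 to 14709385, plus strand), its paralog SLUG, had 21.4, 18.0 and 24.9 CPM and 32.4, 22.6 and 29.6 CPM in the same order, with a log2 fold change of 0.40 (standard error 0.16, edgeR adjusted p = 0.350). Ni replicate 2 lay between control replicates 1 and 3 for Snai2, so its groups overlapped. Zeb1 (ENSMUSG00000024238, chromosome 18 from 5591860 to 5775467, plus strand) had 21.2, 16.7 and 29.8 CPM in controls and 28.4, 27.0 and 29.6 CPM in Ni libraries, and the log2 fold change was 0.33 (standard error 0.19, edgeR adjusted p = 0.459). For Zeb1 control replicate 3 was slightly above the highest Ni library.

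Zeb2 was the gene of this family with a fold change near 0. Its control level was 18.9 ± 0.835 FPKM (SD, n = 3), against 13.6 ± 5.15 FPKM (SD, n = 3) for Snai1, 10.5 ± 1.69 FPKM (SD, n = 3) for Snai2 and 2.18 ± 0.638 FPKM (SD, n = 3) for Zeb1. At 396, 377 and 364 CPM in controls and 375, 345 and 387 CPM in Ni libraries, Zeb2 (ENSMUSG00000026872, chromosome 2 from 44983632 to 45117395, minus strand) differed by -0.04 (standard error 0.10, edgeR adjusted p = 0.896) on the log2 scale, and the ranges of the groups overlapped. Macrophages also express Zeb2, as they do Axl, Gas6 and Cnn2 of this list. The sign of its fold change rested on Ni replicate 2, without which it was 0.01. Without control replicate 3 the other 3 genes of the family were called, with 1.03 (edgeR adjusted p = 0.000509) for Snai1, 0.52 (edgeR adjusted p = 0.0451) for Snai2 and 0.59 (edgeR adjusted p = 0.0103) for Zeb1, whereas Zeb2 stood at -0.06 (edgeR adjusted p = 0.709). That fit called 8.69% of all genes tested higher. Of the exon bases of Zeb2, 3.27% lie under exons on the opposite strand, where Zeb2os had 3.24 to 7.50 CPM in controls and 3.20 to 3.81 CPM in Ni libraries.

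SNAIL and ZEB proteins bind the E-box CAGGTG, which reads CACCTG on the other strand. RefSeq promoter windows of 250 bases before to 50 after a start site (GRCm38.p6) were available for 23 of the 40 members. An exact match to CAGGTG or CACCTG was found for 3 of the 23, Cav1, S100a16 and Snai1, against 22.6% of 27025 genes. By window, 3 of the members' 33 held a match, against 20.2% of all 32851 windows. The stretch of the Snai1 window, on the plus strand at chr2:167538032-167538111, is shown because Snai1 had the largest fold change of its family and carries the match in its own promoter, with the E-box in capitals:
Snai1: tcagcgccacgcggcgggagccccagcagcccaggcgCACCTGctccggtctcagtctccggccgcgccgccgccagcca
The E-box begins 126 bases before the start site. A match of letters is a description and does not say that a factor is bound there.

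The 3 members of the TEAD and TAZ group had similar fold changes, between 0.42 and 0.49 on the log2 scale. Wwtr1 (ENSMUSG00000027803, chromosome 3 from 57455649 to 57575910, minus strand), which encodes the coactivator TAZ, had 33.0, 31.6 and 50.2 CPM in controls and 58.6, 46.1 and 56.5 CPM in Ni libraries. Its log2 fold change was 0.49 (standard error 0.18, edgeR adjusted p = 0.334), with control replicate 3 inside the Ni range. Tead1 (ENSMUSG00000055320, chromosome 7 from 112679318 to 112906807, plus strand), a DNA-binding partner of TAZ and YAP, was measured at 38.5, 36.2 and 52.4 CPM against 60.7, 50.4 and 63.9 CPM, and control replicate 3 exceeded Ni replicate 2 only narrowly. For Tead1 the log2 fold change was 0.46 (standard error 0.15, edgeR adjusted p = 0.308). Tead2 (ENSMUSG00000030796, chromosome 7 from 45215753 to 45233644, plus strand), a paralog with a control level of 1.04 ± 0.166 FPKM (SD, n = 3) against 3.10 ± 0.636 FPKM (SD, n = 3) for Tead1, had 4.86, 4.28 and 5.88 CPM in controls and 6.41, 6.91 and 6.85 CPM in Ni libraries, with no overlap of the groups and a log2 fold change of 0.42 (standard error 0.19, edgeR adjusted p = 0.377). Without control replicate 3 the values were 0.74 (edgeR adjusted p = 0.00165) for Wwtr1, 0.65 (edgeR adjusted p = 0.00335) for Tead1 and 0.56 (edgeR adjusted p = 0.0964) for Tead2, so that of these genes Tead2 alone was not called. Of all genes tested, 8.69% were called higher in that fit.

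TEAD proteins bind GGAATG, which reads CATTCC on the other strand. Among the 23 members with a RefSeq promoter window, 8 held an exact match on either strand (34.8%), where 16.6% of 27025 genes did. By window, 10 of the members' 33 held a match, against 14.7% of all 32851 windows. The members with a match were Axl, Cald1, Cavin1, Cd200, Palld, Prrx1, Wwtr1 and Zeb2, with log2 fold changes of 0.26, 0.35, 0.46, 0.74, 0.38, 0.36, 0.49 and -0.04 in that order. Of the 8, all but Zeb2 had positive fold changes, as 34 of the 37 members tested did. Stretches of 80 bases from 5 of these windows are shown as examples from 4 roles, with GGAATG or CATTCC in capitals:
Prrx1: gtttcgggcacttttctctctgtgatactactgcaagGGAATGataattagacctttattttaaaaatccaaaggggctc
Wwtr1: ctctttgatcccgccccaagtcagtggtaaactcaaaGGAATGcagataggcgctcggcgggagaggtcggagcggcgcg
Cald1: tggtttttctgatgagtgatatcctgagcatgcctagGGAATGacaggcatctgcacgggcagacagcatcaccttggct
Palld: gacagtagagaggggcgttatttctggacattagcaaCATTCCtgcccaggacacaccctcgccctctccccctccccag
Cd200: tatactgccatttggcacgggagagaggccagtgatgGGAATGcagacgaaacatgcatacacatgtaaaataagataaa
They lie at chr1:163313788-163313867, chr3:57576004-57576083, chr6:34598314-34598393, chr8:61760134-61760213 and chr16:45409166-45409245 of GRCm38.p6, on the plus strand for Cald1 and on the minus strand for the others, and are written 5′ to 3′ on the strand of the gene. The match begins 180, 136, 153, 87 and 155 bases before a start site in the same order, Wwtr1 having a second annotated start with the same match, and the Palld start is an internal alternative one. Zeb2, with no difference between the groups beyond its error, held the same letters as members that were higher, and no test of the motif was made.

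Surface proteins, counted together with Gas6 as the ligand gene of Axl, were the largest group, with 11 members, all tested. Their fold changes ranged from near 0 to the largest of the list after Cryab. Cd200 (ENSMUSG00000022661, chromosome 16 from 45382135 to 45409053, minus strand) encodes a membrane glycoprotein whose receptor restrains myeloid cells. It had 26.1, 20.9 and 32.9 CPM in controls and 48.2, 35.5 and 50.0 CPM in Ni libraries, and every Ni library was above every control. The log2 fold change of Cd200 was 0.74 (standard error 0.18, edgeR adjusted p = 0.249), with DESeq2 it passed at an adjusted p of 0.0157, and without control replicate 3 it was 0.93 (edgeR adjusted p = 0.00203). Fap (ENSMUSG00000000392, chromosome 2 from 62500943 to 62574075, minus strand), the serine protease of activated fibroblasts, was measured at 64.4, 53.0 and 77.2 CPM and 126, 75.8 and 131 CPM in the same order. Ni replicates 1 and 3 stood far above all other libraries for Fap, whereas Ni replicate 2 lay just under control replicate 3. Its log2 fold change was 0.78 (standard error 0.22, edgeR adjusted p = 0.293), DESeq2 gave an adjusted p of 0.0174, and without control replicate 3 it was 0.93 (edgeR adjusted p = 0.0664).

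Nt5e and Thy1, the surface proteins that define cultured mesenchymal stromal cells, were unlike each other. Nt5e (ENSMUSG00000032420, chromosome 9 from 88327197 to 88372092, plus strand), an ecto-nucleotidase that releases adenosine, had 38.5, 38.4 and 90.8 CPM in controls and 106, 77.2 and 106 CPM in Ni libraries. Control replicates 1 and 2 were nearly equal and far below the rest, while control replicate 3 lay within the Ni range and far above them. The log2 fold change was 0.79 (standard error 0.36, edgeR adjusted p = 0.401) with all libraries and 1.33 (edgeR adjusted p = 0.000130) without control replicate 3, the largest of any member under that setting. Thy1 (ENSMUSG00000032011, chromosome 9 from 44043384 to 44048579, plus strand) was barely detected, with 16, 21 and 24 counts in controls and 25, 20 and 17 counts in Ni libraries. These equal 0.874, 1.32 and 1.44 CPM and 1.36, 1.15 and 0.939 CPM, with a log2 fold change of -0.07 (standard error 0.37, edgeR adjusted p = 0.956) whose sign turned to 0.08 without control replicate 3 and to 0.06 without Ni replicate 3. Of the surface markers of the labelled cell type, Nt5e had a control mean of 6.44 ± 3.48 FPKM (SD, n = 3), whereas Thy1 had 0.402 ± 0.0984 FPKM (SD, n = 3). Eng (CD105) had 13.3 ± 2.45 FPKM (SD, n = 3) in controls. Its levels were 49.2, 47.4 and 65.8 CPM in controls and 66.1, 61.2 and 65.8 CPM in Ni libraries.

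Pdgfra (ENSMUSG00000029231, chromosome 5 from 75152292 to 75198215, plus strand) was among the steadiest members. It had 66.6, 61.1 and 70.7 CPM in controls and 68.8, 67.3 and 71.8 CPM in Ni libraries, and its groups overlapped. The log2 fold change was 0.07 (standard error 0.09, edgeR adjusted p = 0.792), and without control replicate 3 it was 0.12 (edgeR adjusted p = 0.457). Gpc6, a glypican that carries heparan sulfate, was similar, with 26.1, 22.9 and 26.4 CPM in controls, 26.3, 25.6 and 26.3 CPM in Ni libraries and a log2 fold change of 0.05 (standard error 0.11), or 0.10 (edgeR adjusted p = 0.667) without control replicate 3.

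Of the remaining genes of this group, which include Gas6, 3 were higher in Ni at an unadjusted p under 0.05 and 2 were not. Ptprd (ENSMUSG00000028399, chromosome 4 from 75941238 to 78211961, minus strand), a receptor-type tyrosine phosphatase, had 81.0, 69.0 and 81.1 CPM in controls and 109.8, 90.7 and 115 CPM in Ni libraries, without overlap, and a log2 fold change of 0.45 (standard error 0.12, edgeR adjusted p = 0.258). Unlike most members, Ptprd had nearly equal levels in control replicates 1 and 3. Lhfp (ENSMUSG00000048332, chromosome 3 from 53041528 to 53261679, plus strand), a tetraspan membrane protein, also separated the groups, with 51.6, 48.9 and 60.7 CPM against 68.7, 62.2 and 70.5 CPM and a log2 fold change of 0.32 (standard error 0.11, edgeR adjusted p = 0.311). Sdc2 (ENSMUSG00000022261, chromosome 15 from 32920723 to 33034935, plus strand), a syndecan, had 129, 125 and 189 CPM against 211, 163 and 207 CPM, with control replicate 3 above Ni replicate 2 and a log2 fold change of 0.39 (standard error 0.17, edgeR adjusted p = 0.371). Without control replicate 3 these were 0.49 (edgeR adjusted p = 0.0148) for Ptprd, 0.42 (edgeR adjusted p = 0.0145) for Lhfp and 0.62 (edgeR adjusted p = 0.00335) for Sdc2. The receptor tyrosine kinase Axl had 0.26 (standard error 0.18), with control replicate 3 at 110.1 CPM level with the highest Ni library, and 0.53 (edgeR adjusted p = 0.00418) without that control. Its ligand gene Gas6 ranged from 1246 to 1451 CPM in controls and from 1244 to 1530 CPM in Ni libraries, with 0.06 (standard error 0.13), or 0.12 (edgeR adjusted p = 0.493) without that control.

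Caveolae are flask-shaped pits of the plasma membrane built from caveolins and coated by cavins, and all 4 of their genes in the list had positive fold changes, with a median log2 fold change of 0.53. Cavin3 (ENSMUSG00000037060, chromosome 7 from 105480083 to 105482300, minus strand) was the clearest, with 25.2, 38.1 and 45.0 CPM in controls and 59.4, 58.5 and 62.1 CPM in Ni libraries. The Ni libraries were closely grouped and lay above every control, and the log2 fold change was 0.73 (standard error 0.18, edgeR adjusted p = 0.249), with an adjusted p of 0.0137 in DESeq2. Cavin1 (ENSMUSG00000004044, chromosome 11 from 100956733 to 100970887, minus strand) had 169, 169 and 269 CPM against 278, 288 and 269 CPM and a log2 fold change of 0.46 (standard error 0.17, edgeR adjusted p = 0.339). Control replicates 1 and 2 of Cavin1 were nearly equal, and control replicate 3 lay just above Ni replicate 3.

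Cav1 and Cavin2 showed the widest gap between the controls in this group. Cav1 (ENSMUSG00000007655, chromosome 6 from 17306335 to 17341452, plus strand), the main structural caveolin, had 50.7, 58.8 and 110.3 CPM in controls and 115, 86.2 and 114 CPM in Ni libraries, and the log2 fold change was 0.52 (standard error 0.29, edgeR adjusted p = 0.473). Cavin2 (ENSMUSG00000045954, chromosome 1 from 51289126 to 51302960, plus strand) had 8.52, 7.12 and 18.7 CPM against 17.6, 14.6 and 17.7 CPM, and the log2 fold change was 0.54 (standard error 0.33, edgeR adjusted p = 0.511). For Cav1 control replicate 3 lay within the Ni range, and for Cavin2 it was above every Ni library. Without control replicate 3 all 4 genes were called, with 0.94 (edgeR adjusted p = 0.000592) for Cav1, 0.72 (edgeR adjusted p = 0.000240) for Cavin1, 1.09 (edgeR adjusted p = 0.00100) for Cavin2 and 0.93 (edgeR adjusted p = 0.00146) for Cavin3. In that fit 8.69% of all genes tested were called higher. Of the exon bases of Cavin3, 22.5% lie under an exon of Gm45667 on the opposite strand, which had 0 counts in every library.

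The 5 genes of actin-binding proteins all had positive fold changes with a median of 0.38 on the log2 scale. Palld (ENSMUSG00000058056, chromosome 8 from 61511433 to 61902690, minus strand), which encodes the actin-bundling palladin, had 167, 166 and 239.6 CPM in controls and 254, 245 and 247 CPM in Ni libraries, and the Ni libraries lay just above control replicate 3. Its log2 fold change was 0.38 (standard error 0.14, edgeR adjusted p = 0.334), and without control replicate 3 it was 0.58 (edgeR adjusted p = 0.000649). Cald1, encoding caldesmon, had 0.35 (standard error 0.18), and Tpm2 had 0.47 (standard error 0.24). For Cald1 control replicate 3, at 494 CPM, was above every Ni library, which ranged from 460.1 to 488 CPM, while control replicates 1 and 2 had 329 and 293 CPM. Tpm2 had 205 CPM in control replicate 3 against 104 and 117 CPM in the other controls and 183 to 222 CPM in the Ni libraries. Without that library the adjusted call was reached by Cald1, with 0.62 (edgeR adjusted p = 0.000671), and Tpm2, with 0.83 (edgeR adjusted p = 0.000415). Nexn, encoding the filament-binding nexilin, had 0.55 (standard error 0.27) with Ni replicate 2, at 11.8 CPM, level with control replicate 2, and 7.50% of its exon bases are shared with Gm43185 on the same strand. Cnn2 had 0.16 (standard error 0.13). Nexn had 0.80 (edgeR adjusted p = 0.0675) and Cnn2 0.30 (edgeR adjusted p = 0.0762) without control replicate 3.

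The cytosolic group held the member with the largest fold change with all libraries. Cryab (ENSMUSG00000032060, chromosome 9 from 50751325 to 50756636, plus strand) encodes the small heat shock protein αB-crystallin, a chaperone of actin and desmin filaments. It had 29.9, 32.9 and 48.2 CPM in controls and 76.2, 59.8 and 76.8 CPM in Ni libraries, every Ni library above every control, a 1.92-fold difference. The log2 fold change was 0.94 (standard error 0.18, edgeR adjusted p = 0.208), DESeq2 gave an adjusted p of 0.000384, and without control replicate 3 it was 1.18 (edgeR adjusted p = 0.000173). Of its exon bases, 17.0% lie under exons of Hspb2 on the opposite strand, which was counted 4, 1 and 2 times in controls and 13, 2 and 12 times in Ni libraries. The library kit as described does not mark strand, so reads of such partners cannot be told apart from those of the member.

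Nnmt (ENSMUSG00000032271, chromosome 9 from 48591877 to 48605153, minus strand), the methyltransferase of nicotinamide, had 9.29, 12.1 and 13.4 CPM in controls and 13.5, 15.7 and 16.02 CPM in Ni libraries. The groups did not overlap, though Ni replicate 1 exceeded control replicate 3 only narrowly, and the log2 fold change was 0.38 (standard error 0.17, edgeR adjusted p = 0.367), or 0.50 (edgeR adjusted p = 0.0705) without control replicate 3. S100a16, a calcium-binding protein, had 0.24 (standard error 0.18) and was highest in control replicate 3 at 67.0 CPM, and without that library it had 0.51 (edgeR adjusted p = 0.00846). Cygb, a globin of fibroblasts and stellate cells, was the member with the lowest fold change, -0.20 (standard error 0.26), with 6.07, 8.38 and 4.08 CPM in controls and 5.54, 5.41 and 5.14 CPM in Ni libraries. Its controls spread around the closely grouped Ni libraries, without control replicate 3 it had -0.42 (edgeR adjusted p = 0.234), and 8.62% of its exon bases lie under exons of Prcd on the opposite strand.

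**Figure D3:**
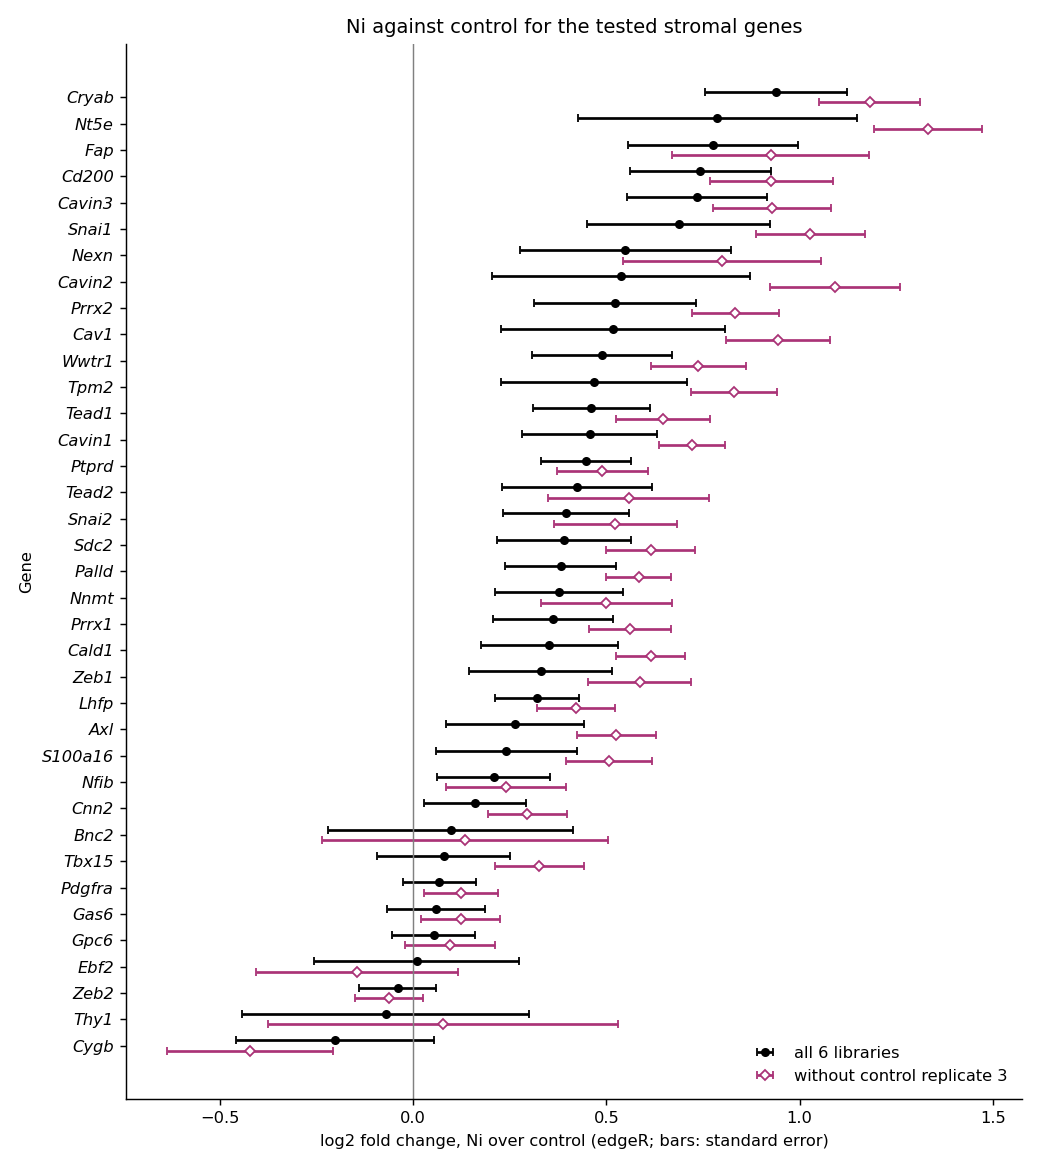
Log2 fold change of Ni over control in edgeR for the 37 tested stromal genes, with bars for the standard error, from all 6 libraries (filled circles) and without control replicate 3 (open diamonds). Cryab is highest with all libraries at 0.94 and Nt5e highest without control replicate 3 at 1.33, while Pdgfra, Gas6, Gpc6 and Zeb2 stay near 0 in both.

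Relatives and partners of the members that are not themselves in the list were described in the same way. Of 66 such genes 52 were tested, with a median log2 fold change of 0.27 and 45 positive, where 48.1% of all genes tested were positive. At an unadjusted p under 0.05, 11 were higher in Ni and 3 lower, against 7.59% and 5.83% of all genes tested, and 0 passed an adjusted p of 0.05 in edgeR. With control replicate 3 left out their median was 0.43, and 26 were called higher and 3 lower at an adjusted p under 0.05, where 8.69% and 6.49% of all genes tested were. The relatives named next are those at an unadjusted p under 0.05 with all libraries. Beside the transcription factors they were Tbx18, Nfix and Msx1, with log2 fold changes of 0.33, 0.39 and 0.69, and Ebf3, which was lower with -0.37. Yap1, the coactivator related to TAZ, had 39.3, 39.4 and 64.3 CPM in controls and 67.7, 66.9 and 63.9 CPM in Ni libraries (log2 fold change 0.47), with control replicate 3 inside the Ni range as for Wwtr1, and without that control it had 0.75 (edgeR adjusted p = 0.000354). On the surface the relatives at that unadjusted threshold were Pdgfrl at 0.42, the syndecan Sdc3 at 0.27 and the glypican Gpc1 at 0.84. Gpc1, with 68.1, 77.9 and 113 CPM in controls and 164, 143 and 156 CPM in Ni libraries, separated the groups, in contrast to the level values of Gpc6.

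Partners of the caveolar members included the gene with the largest fold change of these relatives, Cavin4, at 1.13 and no more than 6.46 CPM. Ehd2, an ATPase at the neck of caveolae, had 0.52 and separated the groups, with 104, 105 and 149.7 CPM in controls and 174, 158 and 181 CPM in Ni libraries. Pacsin2, a membrane-bending partner of caveolae, was lower with -0.23. Among tropomyosins Tpm1 was higher with 0.28 and Tpm3 lower with -0.37, and for Tpm3 control replicate 3, at 207 CPM, lay within the Ni range of 187 to 241 CPM while the other controls had 286 and 311 CPM. Of the small heat shock genes Hspb8 was higher with 0.55, and Snai3, the remaining SNAIL gene, had 1 count in all libraries.

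Markers of other cell types were measured beside the stromal genes. The 15 macrophage genes took 2.82%, 2.87% and 3.27% of the counts of control replicates 1 to 3 and 2.78% to 2.81% of those of the Ni libraries. The 40 stromal members together took 0.378% to 0.500% and 0.497% to 0.509%. The macrophage genes had a median log2 fold change of -0.21, with 4 of 15 positive, where 48.1% of all genes tested were positive. At an unadjusted p under 0.05 Ptprc, Itgam, Tyrobp and Fcer1g were lower and 0 higher, against 5.83% and 7.59% of all genes tested. The median of the macrophage genes was -0.22 without control replicate 3. At an adjusted p under 0.05 in edgeR 6 were then lower and 1, Mrc1, was higher, with 0.55 (edgeR adjusted p = 0.00162), against 6.49% and 8.69% of all genes tested. Adgre1, which encodes the macrophage antigen F4/80, had 3729, 3781 and 2553 CPM in controls and 2793, 2342 and 2753 CPM in Ni libraries, with control replicate 3 inside the Ni range. The macrophage genes did not share a pattern, since Lyz2, with 10330, 9616 and 15100 CPM and 12190, 10800 and 12600 CPM, and Mrc1, with 1587, 1391 and 2543 CPM and 2221, 2154 and 2144 CPM, had control replicate 3 above every Ni library. These genes, like Csf1r with a log2 fold change of 0.01, were chosen after their values were seen. Whether a changed mix of stromal cells and macrophages has a part in the stromal values was not tested.

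The marker lists of matrix-forming and contractile cells had higher median fold changes than the stromal members, with control replicate 3 again above the other controls in most of their genes. Of all genes tested, 48.1% had a positive fold change. The 6 fibrillar stroma genes, Col1a1, Col1a2, Col3a1, Lum, Dcn and Pdgfrb, had a median log2 fold change of 0.87 with 6 positive, and took 0.954% to 1.68% of the counts of controls and 2.13% to 2.60% of those of Ni libraries. The 10 osteoblast genes had a median of 1.27, with 10 positive, and took 0.525% to 1.20% and 1.12% to 1.65%. Every Ni library lay above every control for 8 of them, where 7.97% of all genes tested had this pattern. The 6 smooth muscle and pericyte genes had a median of 0.55, with 5 positive, and Acta2, the actin of stress fibres, had 657, 703 and 1347 CPM in controls and 1252, 1152 and 1198 CPM in Ni libraries. Control replicate 3 was above every Ni library for Acta2, as it was for Cald1 and Cavin2. The 7 endothelial genes took 0.00542% to 0.00768% of the counts of controls and 0.00486% to 0.00505% of those of Ni libraries, with a median of -0.19, or -0.17 without control replicate 3. Of the 6 adipocyte genes 3 were tested, with a median of 0.43, and the list took 0.00568% to 0.00796% and 0.00716% to 0.00894%. Neutrophil and lymphoid genes took at most 0.000320% and 2.88e-05% of any library, with S100a9, Ngp, Ltf, Ms4a1 and Cd3e at 0 counts in all. Leaving out control replicate 3 gave a median of 1.11 for fibrillar stroma, 1.59 for osteoblast and 1.03 for smooth muscle and pericyte. Of the adipocyte genes tested in both fits, Adipoq then had 0.20, Fabp4 0.74 and Plin1 3.66. Plin1 had only 3 and 1 counts in control replicates 1 and 2. Cfd and Cidec then passed the filter through their Ni counts, with at most 7 counts in any control, so no median of the adipocyte list is given for that fit. The part of these lists in the stromal values was not tested.

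**Figure D4:**
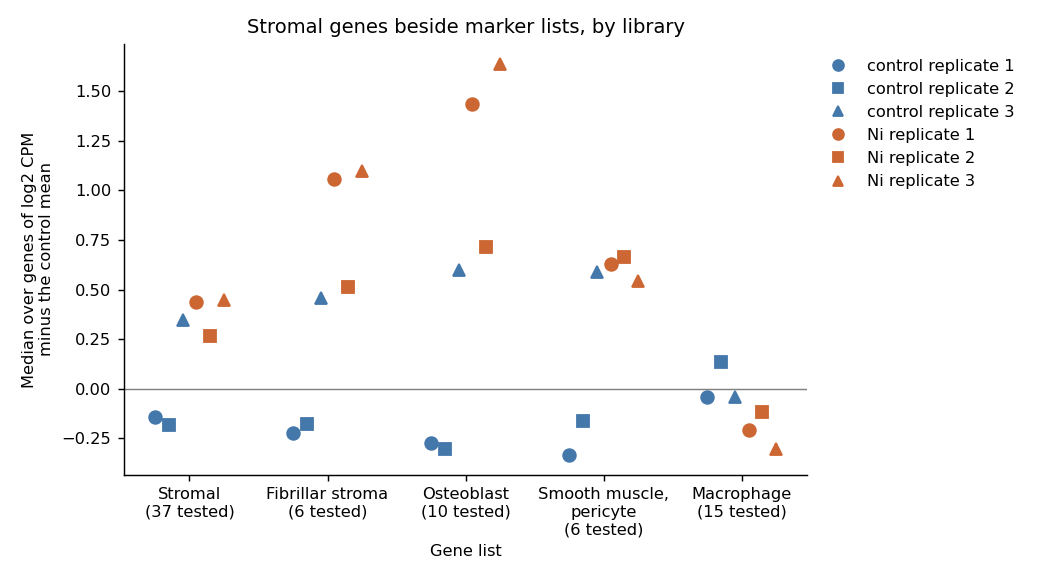
Median over the genes of each list of log2 CPM minus the mean of the 3 controls, for each library. The stromal list reaches 0.45 in Ni replicate 3 and 0.35 in control replicate 3, the osteoblast list reaches 1.64, and the macrophage list lies at or below -0.12 in the Ni libraries.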

How the data were processed

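RNA-seq libraries of 3 control and 3 Ni cultures were analysed, grouped by the sample labels. The deposited counts are raw numbers of reads per gene for 54532 genes, and the authors also deposited FPKM values. The FPKM values equal counts divided by gene length and by 1 factor per library (values deviated by at most 3.29e-07 of their size). The submitters' processing notes name the build GRCm38. The aligner, the counting tool and its strand setting are not given in the sources used here. The library kit as described (NEBNext Ultra, second strand made with dNTPs) does not mark strand, so reads from a gene and from an antisense partner cannot be told apart. The study's methods name no count model.

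Counts were tested with edgeR 4.0.16 in R 4.3.3 (TMM scaling, filterByExpr by group, robust quasi-likelihood fit without covariates, Benjamini-Hochberg adjustment over all 14624 genes that passed). Fitted fold changes used a prior count of 0.125 and log2 CPM a prior count of 2, and CPM printed in the text has none. The total counts per library, 16101033 to 18642504, set the precision of low genes. The alternatives were DESeq2 1.42.0, DESeq2 size factors or library totals in edgeR, no filter, a filter of 10 counts in every library, limma 3.58.1 on log2(FPKM + 1) or log2(FPKM + 0.1), the replicate number as a block, and leaving out each library. Of all these fits, only the main edgeR fit was tested on simulated data. No pair of libraries of a group agreed within sampling noise, with a chi-square per degree of freedom of 4.37 to 43.6.

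The members, the lists and the rule for named genes were chosen with earlier results of these data known. By that rule every member is named, and full values are given for members at an unadjusted p under 0.05 or with groups that do not overlap, for paralogous pairs, and for Pdgfra, Thy1, Nt5e, Fap, Cav1 and Cavin1 to Cavin3. Coordinates are those of the deposited annotation, which for all 40 members equal GENCODE M21 on GRCm38. Promoter sequences are RefSeq's on GRCm38.p6.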

Additional observations from a re-analysis of the deposited data

How the results depend on the processing

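The median log2 fold change of the stromal members lay between 0.36 and 0.39 under every alternative that kept all 6 libraries, and leaving out a library gave 0.29 (without control replicate 2) to 0.56 (without control replicate 3). The number of members with a positive fold change was 33 to 35 throughout, but not over the same number tested. It was 34 of 37 in the main fit and 35 of 40 in DESeq2, which included Twist2, Meox1 and Meox2. The counts of calls depended on the processing. At an adjusted p under 0.05, 0 members were called in edgeR, 4 in DESeq2, 14 without a filter on low counts (where 3.97% of all 25876 genes were called) and 6 with the replicate block (2.15% of all genes), and leaving out a library gave 0 to 22, the highest without control replicate 3. At an unadjusted p under 0.05 the count was 16, and leaving out a library gave 6 (without control replicate 1) to 28 (without control replicate 3), with 7 without control replicate 2, 8 without Ni replicate 1 and 7 without Ni replicate 3. The cause of these changes in count was not tested. Shares of all genes at an unadjusted p are not given for the fits that leave out a library. Those unadjusted counts are therefore not read as a result about the members. The sample titles number the replicates and give no pairing across the groups. Deviations of same-numbered libraries correlated at 0.01, 0.26 and 0.14, which with 3 libraries in a group cannot settle whether they are paired. Of the 24 members with full values, the sign turned for 2 near 0, Zeb2 to 0.009 without Ni replicate 2 and Thy1 to 0.055 without Ni replicate 3 and 0.078 without control replicate 3. Over the libraries left out, Zeb2 ranged from -0.074 to 0.009 and Thy1 from -0.263 to 0.078. Of the members given in less detail, Ebf2 turned from 0.009 to -0.144 without control replicate 3 and to -0.006 with the replicate block or with the length trend removed. Removing a trend with gene length, an alternative chosen after seeing the data, gave a median of 0.39 and 16 members at an unadjusted p under 0.05. Twist2, Meox1 and Meox2, with 9 to 22 counts over all libraries, are too shallow for any statement on a difference.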
